A study of Mus musculus with 5 samples.

Results

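Malat1, Neat1, Platr10, Platr31, Tug1 and Kcnq1ot1 are 6 long non-coding RNAs of the mouse, picked by gene symbol from the 32285 genes of the deposited matrices. They were picked with their levels in these libraries known, so every difference between libraries is given as a description and none is tested. The cells, REX-1 RFP, are embryonic stem cells of the mouse that carry a red fluorescent reporter under the Rex1 (Zfp42) promoter. After passage and a first growth in medium with leukaemia inhibitory factor (LIF), a cytokine that keeps these cells in self-renewal, the cells spent 72 h in 1 of 5 conditions. The ND library was grown without LIF. The NS library and the 3 libraries with 200, 250 and 300 mM sorbitol, an osmolyte that makes the medium hyperosmotic, were grown with LIF. The labels do not spell out NS and ND. Each condition has 1 library from 1 cell line, so the condition, the culture and the library preparation cannot be told apart.

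Long non-coding RNAs are transcribed and often spliced and polyadenylated like messenger RNAs but code for no known protein. Malat1 and Neat1 are neighbours in the genome and stay in the nucleus, Malat1 at the speckles that hold splicing factors and Neat1 as the scaffold of the paraspeckles. Kcnq1ot1 is the paternally expressed antisense RNA that silences the imprinted genes around Kcnq1, Tug1 is a widely expressed RNA first described in the mouse retina, and the Platr transcripts were named for their association with pluripotency in mouse embryonic stem cells.

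The 3′ ends of the annotated transcripts are shown because the labels name a 3′ library kit, so the counts may rest on sequence near these ends. The sequences are the last 60 bases of GENCODE M21 transcripts (build GRCm38), with the polyadenylation hexamers AATAAA and ATTAAA in capitals where they fall in the last 50 bases.
Malat1-201, chr19:5795690-5795749, minus strand: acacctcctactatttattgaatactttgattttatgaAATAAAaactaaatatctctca
Neat1-201 (long form), chr19:5824708-5824767, minus strand: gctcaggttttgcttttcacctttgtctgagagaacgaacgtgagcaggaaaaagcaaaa
Neat1-202 (short form), chr19:5842307-5842366, minus strand: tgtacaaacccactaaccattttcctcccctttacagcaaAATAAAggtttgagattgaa
Platr10-201, chr3:75647446-75647505, minus strand: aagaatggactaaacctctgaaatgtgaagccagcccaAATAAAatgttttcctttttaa
Platr31-201, chr6:127110408-127110467, plus strand: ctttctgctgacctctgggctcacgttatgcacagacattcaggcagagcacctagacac
Tug1-201, chr11:3639785-3639844, minus strand: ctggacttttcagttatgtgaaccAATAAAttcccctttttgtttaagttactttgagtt
Kcnq1ot1-201, chr7:143203458-143203517, minus strand: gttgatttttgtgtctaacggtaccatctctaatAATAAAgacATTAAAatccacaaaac

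A hexamer was found in 5 of these 7 ends and not in those of the long Neat1 transcript and Platr31. For scale, 39.3% of 13373 annotated long non-coding genes held one in the last 50 bases of their longest transcript. Searching the same strand for runs of at least 12 A found 1 in Malat1 (12 bases long, starting 310 bases from the 3′ end) and 8 in Kcnq1ot1 (the longest of 41 bases, 23528 bases from its 3′ end), against 6.25% of the long non-coding genes with any such run. Such a run can be primed by oligo(dT). Whether UMIs of Kcnq1ot1 or Malat1 came from these runs was not tested. The Kcnq1ot1 transcript is unspliced and 93092 bases long, whereas Malat1-201 has 6983 bases, Tug1-201 6719 bases, Platr31-201 1466 bases and Platr10-201 1026 bases.

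As for the gene loci, Malat1 (ENSMUSG00000092341) lies at chr19:5795690-5802672 and Neat1 (ENSMUSG00000092274) at chr19:5824708-5845478. Platr10 (ENSMUSG00000099370) lies at chr3:75647446-75655731, and Platr31 (ENSMUSG00000097525) at chr6:127100297-127110467. Tug1 (ENSMUSG00000056579) lies at chr11:3639785-3649673 and Kcnq1ot1 (ENSMUSG00000101609) at chr7:143203458-143296549. Platr31, Tug1 and Kcnq1ot1 are annotated as antisense genes: Platr31 overlaps Tigar over 9261 bases, Tug1 overlaps Morc2a over 483 bases and Kcnq1ot1 lies whole inside Kcnq1. The use of strand in the counting is not given in the sources used here, so reads from these overlaps cannot be told apart. Kcnq1, a potassium channel gene, had 0 UMIs in all 5 libraries. For scale, the floor of 3 UMIs used for ratios is 0.135 CPM in NS and at most 0.379 CPM in the others.

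Each library was deposited with exactly 10000 barcodes, and whether each barcode is 1 cell was not tested. The kept barcodes numbered 9240 in ND, 10000 in NS and 9985, 10000 and 9849 at 200, 250 and 300 mM sorbitol, and the libraries held 7906116 to 22158653 UMIs. NS was the deepest, with a median of 2135 UMIs per barcode against 801 to 939 in the other 4 libraries. The shallowest kept barcode was near the median, with 1897 UMIs in NS and 729 to 827 UMIs in the others. Mitochondrial transcripts made up 4.98% of the UMIs in ND, 3.98% in NS and 5.61%, 5.78% and 6.13% in the sorbitol libraries. Of 49558 distinct barcode sequences, 441 occurred in more than 1 library. All 8 embryonic stem cell markers, among them Pou5f1, Sox2, Nanog and Zfp42, had at least 5 CPM in every library. The list summed to 5573 CPM in ND, 6739 CPM in NS and 8150, 8863 and 8214 CPM at the 3 doses. The sum does not stand for each marker. In ND over NS, 1 of 8 was at least 1.5-fold higher and 1 lower, against 10% and 7.07% of all genes. At the 3 doses over NS 2, 2 and 3 were higher and 0 lower. Of all genes 26.8%, 26.5% and 32.8% were higher and 11%, 8.69% and 10.6% lower. Fibroblast markers summed to 3.79 CPM in ND, 4.11 CPM in NS and 6.04 to 9.44 CPM in the sorbitol libraries, with 3 or 4 of 8 at 0. Primitive endoderm markers summed to 151 CPM in ND, 278 CPM in NS and 362, 472 and 531 CPM at 200, 250 and 300 mM, and trophoblast and neural markers to at most 65.1 CPM in any library. The part of these marker, depth and mitochondrial differences in the results below was not tested.

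Levels are in CPM, the UMI counts of a gene scaled to the UMI total of a library's kept barcodes. Intervals on levels and ratios are 95% and cover counting error only. A gene is called higher or lower where its CPM in the library named first is at least 1.5-fold above or below that in the other, with no test behind the call. All 6 RNAs had at least 5 CPM in 1 or both libraries of every comparison, which is the minimum used for the counts over all genes. The plot of levels shows the 6 RNAs library by library.

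**Figure D1:**
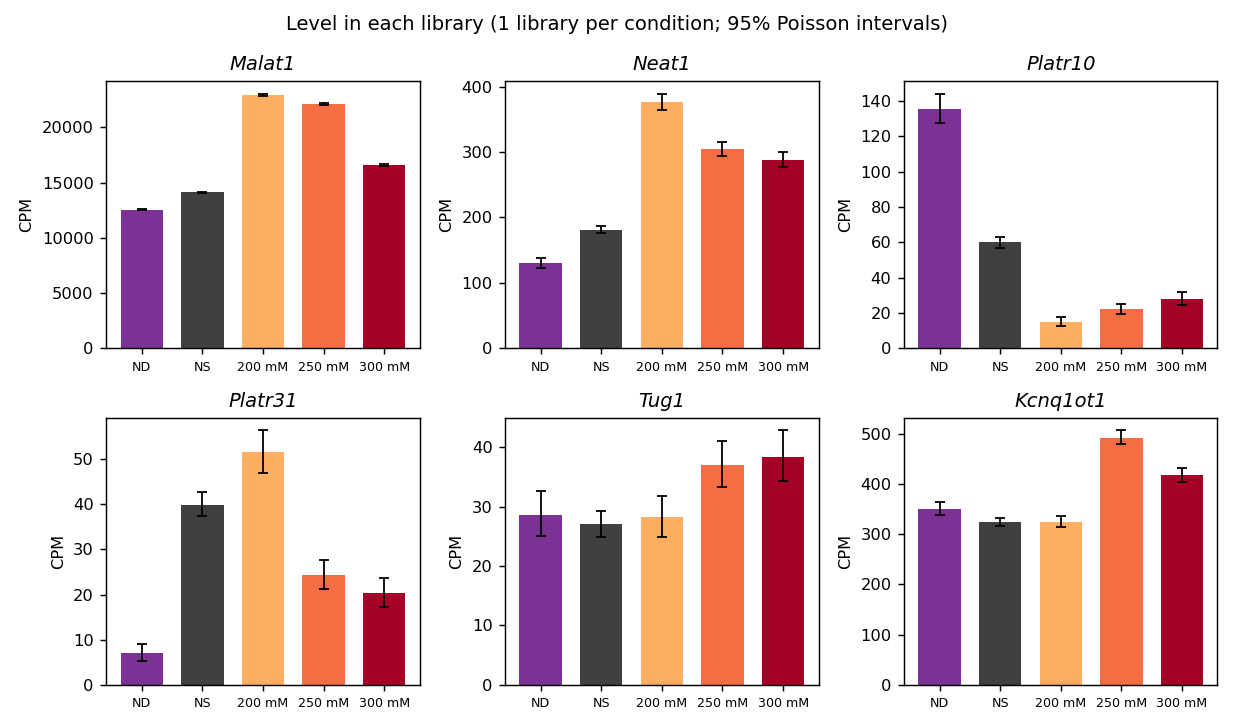
Level of each long non-coding RNA in CPM (y axis, from 0, on its own scale in each panel) in the 5 libraries (x axis: ND, NS, then 200, 250 and 300 mM sorbitol). Bars are single libraries and whiskers are 95% Poisson intervals. Malat1 and Neat1 stand highest at 200 mM sorbitol, Platr10 in ND, and Platr31 lowest in ND.

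Platr10 and Platr31, the pair of RNAs from the pluripotency-associated group, differed most between libraries, and in ND they lay on opposite sides of NS. Platr10 was found at 136 CPM in ND, 59.9 CPM in NS and 15.0, 22.0 and 27.9 CPM at 200, 250 and 300 mM sorbitol. It was thus highest without LIF and lowest at 200 mM sorbitol, with no interval of ND or NS reaching those of the sorbitol libraries. The ND level was 2.27-fold that of NS (log2 1.18, 1.06 to 1.30). The sorbitol levels were 4.003-fold, 2.72-fold and 2.15-fold below NS at the 3 rising doses, and 9.07-fold, 6.17-fold and 4.88-fold below ND. Within the sorbitol series the level was higher at each step, by 0.56 (0.24 to 0.88) and 0.34 (0.07 to 0.61) on the log2 scale.

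Platr31 was found at 6.96 CPM in ND, 39.9 CPM in NS and 51.5, 24.3 and 20.3 CPM at 200, 250 and 300 mM sorbitol. ND was the lowest library and 200 mM the highest, and the intervals of 250 and 300 mM overlapped. The ND level rests on 55 UMIs and was 5.74-fold below NS (log2 -2.52, -2.94 to -2.13). At 200 mM the ratio to NS was within 1.5-fold (log2 0.37, 0.20 to 0.53), and at 250 and 300 mM the level was 1.65-fold and 1.97-fold below NS. Against ND, the level was 7.41-fold higher at 200 mM, 3.49-fold at 250 mM and 2.91-fold at 300 mM. Platr31 therefore lay above ND but on both sides of NS along the doses, whereas Platr10 lay below both ND and NS at every dose.

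Tigar, the gene antisense to Platr31 and a regulator of glycolysis, had 53.8 CPM in ND, 61.4 CPM in NS and 43.3, 46.1 and 38.7 CPM in the sorbitol libraries. Its levels did not follow those of Platr31: the lowest was at 300 mM and not in ND. Ccnd2, the cyclin D2 gene next to it, had 52.2 CPM in ND, 30.2 CPM in NS and 12.5, 16.2 and 14.4 CPM at the 3 doses. Serpini1, the nearest neighbour of Platr10 and a serine protease inhibitor, had 4.17 CPM in ND and 3.20 CPM in NS. At the 3 doses it had 5.32, 7.17 and 6.03 CPM. Its log2 ratios to NS at the rising doses were 0.73 (0.17 to 1.28), 1.16 (0.66 to 1.66) and 0.91 (0.36 to 1.45). Serpini1 was thus higher than NS at every dose, where Platr10 was lower. Its counts were low, at 33 to 71 UMIs, and its interval for ND over NS held 0.

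Malat1 made up more than 1 in 100 UMIs of every library. It was found at 12548 CPM in ND, 14103 CPM in NS and 22948, 22155 and 16622 CPM at 200, 250 and 300 mM sorbitol, or 1.25%, 1.41%, 2.29%, 2.22% and 1.66% of all UMIs. The 3 sorbitol libraries lay above both others, with the highest 2 levels at 200 and 250 mM. The ratio to NS was 1.63-fold (1.62 to 1.64) at 200 mM, 1.57-fold (1.56 to 1.58) at 250 mM and 1.18-fold (1.17 to 1.19) at 300 mM, and the ND level was 1.12-fold below NS. The intervals are narrow because they hold counting error alone, on 99208 to 312501 UMIs.

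Neat1 was found at 130 CPM in ND, 181 CPM in NS and 376, 305 and 288 CPM at 200, 250 and 300 mM sorbitol. The order of the libraries was the same as for Malat1, and the intervals of 250 and 300 mM overlapped. The ratio to NS was 2.08-fold (1.99 to 2.18) at 200 mM, 1.68-fold (1.61 to 1.77) at 250 mM and 1.59-fold (1.51 to 1.68) at 300 mM. The ND level was 1.39-fold below NS. Against ND the sorbitol levels were 2.89-fold, 2.34-fold and 2.21-fold higher. The count does not separate the short and long Neat1 forms, whose 3′ ends are printed above.

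Frmd8, a gene beside Neat1 whose protein binds the inactive rhomboid proteases, had 24.3 CPM in ND, 20.8 CPM in NS and 33.5, 27.6 and 39.3 CPM at the 3 doses. Its log2 ratio to NS was 0.69 at 200 mM, 0.41 at 250 mM and 0.92 at 300 mM, so its order over the doses differed from that of Neat1.

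Kcnq1ot1 was found at 351 CPM in ND, 324 CPM in NS and 325, 493 and 418 CPM at 200, 250 and 300 mM sorbitol. NS and 200 mM had overlapping intervals, and the 250 mM library was the highest. The ratio to NS was 1.52-fold (1.47 to 1.58) at 250 mM, just past the 1.5-fold threshold, and 1.29-fold (1.24 to 1.35) at 300 mM. The ND level was 1.08-fold that of NS (1.04 to 1.13).

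Tug1 varied least. It was found at 28.6 CPM in ND, 27.0 CPM in NS and 28.2, 37.1 and 38.3 CPM at 200, 250 and 300 mM sorbitol. ND, NS and 200 mM had overlapping intervals, as did 250 and 300 mM, and no ratio between libraries reached 1.5-fold. The log2 ratio to NS was 0.08 (-0.14 to 0.31) in ND, 0.06 (-0.15 to 0.28) at 200 mM, 0.46 (0.27 to 0.65) at 250 mM and 0.51 (0.31 to 0.71) at 300 mM. Morc2a, the chromatin-silencing ATPase gene that shares its start with Tug1, had 48.8 CPM in ND, 38.9 CPM in NS and 53.7, 50.6 and 66.0 CPM at the 3 doses.

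**Figure D2:**
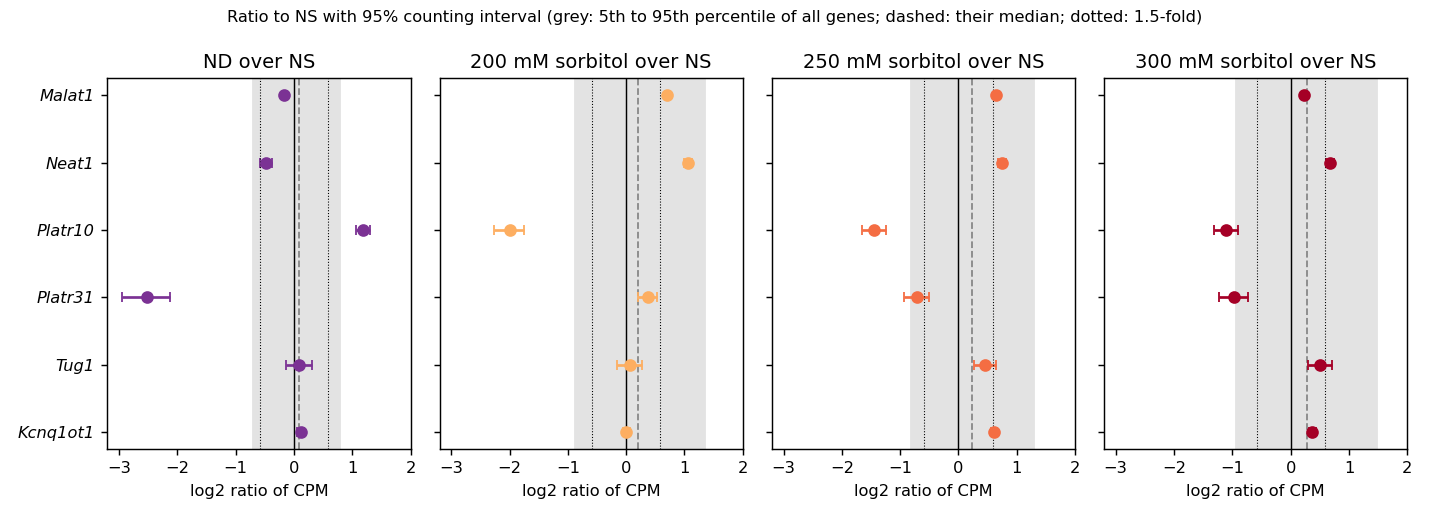
Log2 ratio of CPM to NS (x axis) for each long non-coding RNA (y axis) in ND and at 200, 250 and 300 mM sorbitol, 1 panel each. Points carry 95% counting intervals, the grey band is the 5th to 95th percentile of all genes with at least 5 CPM, the dashed line their median and the dotted lines 1.5-fold. Platr10 and Platr31 in ND, Platr10 at every dose and Platr31 at 300 mM lie outside the band.

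Counted against all genes, 2 of the 6 RNAs passed 1.5-fold for ND over NS (Platr10 higher, Platr31 lower), where 17.1% of 10210 genes did. At 200 mM over NS 3 of 6 passed (Malat1 and Neat1 higher, Platr10 lower), with 37.8% of all genes. At 250 mM 5 of 6 passed, with 35.2% of all genes: Malat1, Neat1 and Kcnq1ot1 higher, Platr10 and Platr31 lower. At 300 mM 3 of 6 passed (Neat1 higher, Platr10 and Platr31 lower), with 43.3% of all genes. For 300 mM over ND 3 of 6 passed (Neat1 and Platr31 higher, Platr10 lower), with 39.3% of all genes. Long non-coding genes as a class passed more often than all genes, at 33.5% for ND over NS and 55.8%, 53.6% and 55.5% for the 3 doses over NS and 60.6% for 300 mM over ND. The count among the 6 was above that of their class at 250 mM over NS and near or below it in the other 4 comparisons. The comparisons share the NS or the ND library and are not independent.

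All genes together were shifted upward in the sorbitol libraries, by less than most ratios of the 6. The median log2 ratio of all genes to NS was 0.20, 0.23 and 0.29 at 200, 250 and 300 mM, and scaling by the median of gene ratios (size factors) in place of the UMI total lowered every sorbitol ratio to NS by 0.22, 0.24 and 0.26. On that scale 2 of the 6 RNAs passed 1.5-fold at 250 mM, Platr10 and Platr31. Malat1 then stood at 0.48, 0.42 and -0.02 (log2) over NS at the 3 doses, so its direction at 300 mM turned. Neat1 stood at 0.84, 0.52 and 0.41, and Kcnq1ot1 at -0.21, 0.37 and 0.11, with a turned direction at 200 mM. Tug1 stood at -0.16, 0.22 and 0.25, also turned at 200 mM, whereas Platr10 stood at -2.22, -1.68 and -1.37 and Platr31 at 0.15, -0.95 and -1.24. The same scaling moved the share of higher genes among all called from 70.8%, 75.3% and 75.6% to 47.4%, 48.1% and 50.6% for the 3 doses over NS, and from 71.0% to 46.6% for 300 mM over ND.

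Ranked within the series, the ratios of the Platr pair lay near the ends of all genes. Platr10 at 200 mM over NS was below 99.8% of 10690 other genes, and Platr31 in ND over NS below 99.9% of 10204 genes. Neat1 at 200 mM was exceeded by 9.85% of genes and Malat1 by 21.04%. From 200 to 250 mM, where 7.0% of all genes differed by at least 1.5-fold, Kcnq1ot1 was 1.52-fold higher and Platr31 2.12-fold lower. From 250 to 300 mM, where 5.69% did, none of the 6 passed 1.5-fold, and Malat1 fell the furthest relative to other genes, by 0.41 on the log2 scale, with 93.9% of genes above it.

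Likeness to other genes was measured as the root mean square difference of centred log2 CPM over the 5 libraries, among 6743 genes with at least 20 CPM in any library. Among the genes most like Malat1 were Mxd4, a partner of Max that represses transcription (0.056), and Spag9, a scaffold of JNK signalling (0.061). Neat1 was closest to Tnk1, a tyrosine kinase (0.046), then Arhgap29 (0.072), and Plekho2 (0.082). Tug1 and Kcnq1ot1 were close to each other (0.095). Tug1 was closest to Zfp568, a zinc finger gene (0.034), and Rnf220, a ubiquitin ligase (0.035), and Kcnq1ot1 to Cenpb, a centromere protein (0.044), Wnt7b, a Wnt ligand (0.044), and Ppil2 (0.057).

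The Platr pair had few genes like them. The closest to Platr10 were Slc7a11, the cystine importer (0.227), Trim47 (0.239) and Cpsf4l (0.253). For Platr31 they were Egr1, an immediate early transcription factor (0.338), Guca1a (0.440) and Cavin1, a coat protein of caveolae (0.451). Within 0.25 lay 2 genes for Platr10 and 0 for Platr31, against 271 for Neat1, 888 for Malat1, 2072 for Kcnq1ot1 and 2762 for Tug1. A flat profile has more neighbours, and 5 libraries of 1 replicate each give few points for the measure. Platr10 and Platr31 were also far from each other (1.99).

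Gene lists are given by counts of members at least 1.5-fold higher and lower. Of all genes, 10% were higher and 7.07% lower for ND over NS, and 26.8%, 26.5% and 32.8% were higher and 11%, 8.69% and 10.6% lower at 200, 250 and 300 mM over NS. Other Platr transcripts gave no common direction. Of 22 other Platr and Lncenc1 genes in the files, 10 reached 5 CPM for ND over NS, with 2 higher and 2 lower, and at 300 mM over NS 2 of 9 were higher and 2 lower. Lncenc1, a long non-coding RNA of naive embryonic stem cells, had 93.7 CPM in ND, 47.7 CPM in NS and 121, 109 and 152 CPM at the 3 doses. Platr14 had 39.0 CPM in ND, 35.6 CPM in NS and 17.7, 15.5 and 14.5 CPM. Platr3 had 21.8 CPM in ND, 18.0 CPM in NS and 15.2, 15.3 and 16.3 CPM, and Platr12 10.8, 10.02, 15.4, 13.6 and 17.2 CPM in the same order. Platr14 was thus lower at each dose, as Platr10 was, but not higher in ND, where its log2 ratio to NS was 0.13.

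Among 32 other long non-coding RNAs in the files, 18 reached 5 CPM for ND over NS, with 6 higher and 1 lower. The same number did at 300 mM over NS, with 4 higher and 6 lower. H19, an imprinted RNA that hosts a microRNA, had 169 CPM in ND, 139 CPM in NS and 943, 794 and 932 CPM at the 3 doses. Meg3, a maternally expressed imprinted RNA, had 156 CPM in ND, 77.8 CPM in NS and 98.4, 73.0 and 72.2 CPM. Tsix, the antisense partner of Xist, had 96.6 CPM in ND, 75.4 CPM in NS and 68.5, 137 and 154 CPM, and Epb41l4aos 68.0, 76.5, 36.2, 38.2 and 34.2 CPM in the same order.

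Transcripts for the proteins that share bodies with these RNAs mostly stayed within 1.5-fold, as did those of most genes. Of 24 measured paraspeckle protein genes, 3 were higher and 0 lower in ND over NS. At the 3 doses over NS 2, 2 and 6 of 24 or 25 were higher and 0 lower. Their median log2 ratios of 0.15, 0.24 and 0.39 at the rising doses stand beside 0.20, 0.23 and 0.29 for all genes. Hnrnpk had 401 CPM in ND, 266 CPM in NS and 363, 349 and 393 CPM at the 3 doses. Hnrnpa1 (566, 412, 375, 297 and 349 CPM in the same order) and Hnrnpf (267, 219.9, 225, 222 and 293 CPM) also encode RNA-binding proteins of paraspeckles. The genes of the core proteins, Nono, Sfpq and Pspc1, named here for their role, had log2 ratios of 0.08, -0.38 and 0.62 at 200 mM over NS, where Neat1 was highest.

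Of 28 genes for nuclear speckle proteins, 1 was higher and 7 lower at 200 mM over NS, against 26.8% and 11% of all genes, while 2 were higher and 0 lower at 250 mM. Srsf3, a splicing factor, had 412 CPM in ND, 388 CPM in NS and 222, 320 and 364 CPM at the 3 doses. The speckle scaffold Srrm2 had 452 CPM in ND, 386 CPM in NS and 296, 345 and 314 CPM, and Srrm1 382, 336, 266, 275 and 269 CPM in the same order. Rbm25, a splicing regulator, had 325 CPM in ND, 324 CPM in NS and 407, 398 and 403 CPM. The median speckle gene stood at -0.25 (log2) at 200 mM, where Malat1 stood at 0.70.

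Of 15 genes in the imprinted domain and its flanks, 6 reached 5 CPM at each dose over NS, and 2, 1 and 1 were higher and 2, 0 and 2 lower at the rising doses. Cd81, a tetraspanin gene, had 148 CPM in ND, 195 CPM in NS and 147, 142 and 178 CPM at the 3 doses. Nap1l4 (75.5, 70.2, 51.3, 54.3 and 56.0 CPM in the same order) and Dhcr7, a cholesterol synthesis enzyme (32.5, 33.5, 60.4, 37.6 and 38.1 CPM), were also measured, and Tssc4 had 14.7 to 26.2 CPM. Cdkn1c and Phlda2, the growth-restraining genes that Kcnq1ot1 is known to silence, were low but differed between libraries. Cdkn1c had 2.02 CPM in ND, 4.38 CPM in NS and 4.77, 8.50 and 6.99 CPM at the 3 doses. Phlda2 had 9.87 CPM in ND, 18.9 CPM in NS and 7.38, 13.5 and 8.32 CPM.

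Genes for chromatin partners named for these RNAs, mainly the Polycomb complex PRC2, had 9 of 18 higher and 1 lower at 300 mM over NS, against 32.8% and 10.6% of all genes. With median-of-ratios scaling 6 were higher and 2 lower there. At 200 mM 5 of 17 and at 250 mM 6 of 18 were higher, against 26.8% and 26.5% of all genes, and in ND over NS 1 of 17 was. Suz12, a core PRC2 subunit, had 318 CPM in ND, 252 CPM in NS and 415, 383 and 535 CPM at the 3 doses. Jarid2, which recruits PRC2, had 422 CPM in ND, 285 CPM in NS and 519, 486 and 679 CPM. The heterochromatin proteins Cbx1 (900, 648, 602, 714 and 624 CPM in the same order) and Cbx3 (495, 414, 299, 363 and 281 CPM) were not higher than NS by 1.5-fold in any library.

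Of 16 RNA decay and 3′ processing genes, 2 were higher in ND over NS, and 3, 3 and 4 were higher and 1, 0 and 1 lower at the rising doses. Xrn2, a nuclear exonuclease, had 140 CPM in ND, 123 CPM in NS and 166, 177 and 171 CPM at the 3 doses. Pabpn1, the nuclear poly(A)-binding protein, had 240 CPM in ND, 230 CPM in NS and 164, 189 and 169 CPM. The helicase Mtrex (85.1, 74.0, 56.1, 71.9 and 66.7 CPM in the same order) and the methyltransferase Mettl16, which binds the Malat1 triplex (93.1, 92.4, 78.2, 83.7 and 94.3 CPM), stayed within 1.5-fold of NS in every library.

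Malat1 varied widely between the barcodes of a library. Its share of a barcode's UMIs ran from 0.258% at the 5th percentile to 2.49% at the 95th in ND and from 0.415% to 2.67% in NS. In the sorbitol libraries the same percentiles were 0.610% and 4.29%, 0.670% and 4.198%, and 0.371% and 3.21% at the 3 doses. The spread within each library was thus wider than the gap between library medians, which were 1.17%, 1.33%, 2.19%, 2.07% and 1.59% in the order ND, NS, 200, 250 and 300 mM. The variance over barcodes was 3.32 times that of 1 shared profile at the same depths in ND, 7.68 times in NS and 5.28, 5.34 and 4.04 times at the 3 doses. This ratio grows with the UMIs per barcode, so it ranks neither the libraries, of which NS is the deepest, nor RNAs of different levels. The 95th percentile of the share was 9.64 times the 5th in ND, 6.44 times in NS and 7.04, 6.27 and 8.67 times at the 3 doses. Fewer UMIs per barcode widen these percentiles by sampling, so they do not rank the libraries either. The variance ratios of the 50 genes of nearest level had medians of 1.05 to 1.15 and were at most 2.24, though none of these genes is as abundant as Malat1.

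**Figure D3:**
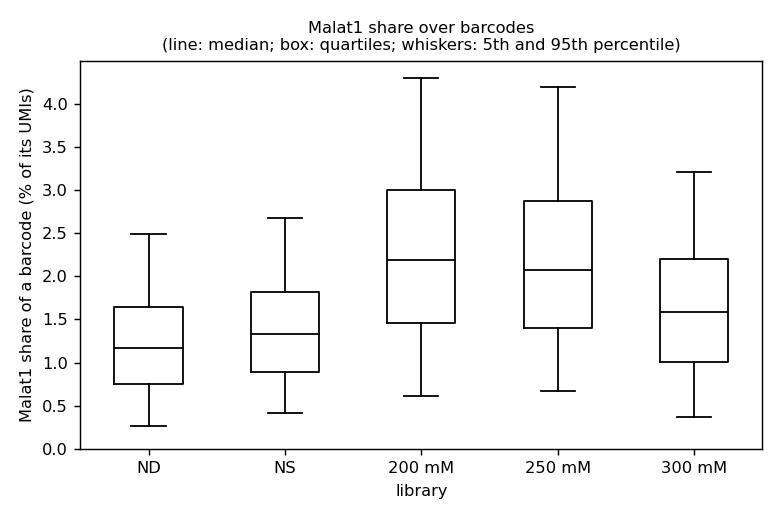
Malat1 share of a barcode's UMIs in percent (y axis, from 0) over the kept barcodes of each library (x axis). Lines are medians, boxes quartiles and whiskers the 5th and 95th percentiles. Medians are 1.17% in ND, 1.33% in NS and 2.19%, 2.07% and 1.59% at 200, 250 and 300 mM sorbitol, and the boxes of all 5 overlap.

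The share of barcodes with at least 1 UMI, after thinning every barcode to 500 UMIs, was 97.5% for Malat1 in ND (exact binomial 97.2 to 97.8%), 98.5% in NS and 99.4%, 99.6% and 98.6% at the 3 doses. It was 6.18% for Neat1 in ND, 8.18% in NS and 16.8%, 14.0% and 13.7% in the sorbitol libraries, and unthinned 10.4%, 30.8%, 28.6%, 25.1% and 21.1%. Kcnq1ot1 was seen in 16.6% of thinned barcodes in ND, 14.5% in NS and 15.1%, 20.8% and 18.8% at the 3 doses. Platr10 was seen in 6.23% in ND (5.75 to 6.75%), 2.81% in NS (2.49 to 3.15%) and 0.841%, 1.10% and 1.42% at the 3 doses, close to the 6.57%, 2.95%, 0.746%, 1.09% and 1.38% that 1 shared profile gives. Tug1 was seen in 1.28% to 1.88% of thinned barcodes. No cell type that lacks these RNAs was in the libraries, so the share due to free RNA in the droplets could not be measured.

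Barcodes of each library were then ordered by their Malat1 share and cut into 5 equal groups (quintiles), with all other genes scaled to the UMIs without Malat1. Neat1 and Kcnq1ot1 were higher in the highest Malat1 quintile than in the lowest in all 5 libraries. Neat1 had 157 CPM in the highest quintile and 105 CPM in the lowest in ND, and 252 and 124 CPM in NS. At the 3 doses it had 505 and 303 CPM, 404 and 259 CPM, and 381 and 248 CPM. The ratios were 1.498-fold in ND, 2.03-fold in NS and 1.67-fold, 1.56-fold and 1.54-fold at the doses. Kcnq1ot1 differed by 1.74-fold in ND, 2.54-fold in NS and 2.20-fold, 2.02-fold and 2.04-fold at the 3 doses.

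For scale, 2.45% of genes with at least 50 CPM were at least 1.5-fold higher in the highest quintile in ND, 3.61% in NS and 2.34%, 3.04% and 2.42% at the 3 doses. No gene in that set exceeded Kcnq1ot1 in NS, at 200 mM or at 300 mM. No such step was resolved for Tug1 and Platr10: the intervals of their ratios held 0 on the log2 scale in every library, except Tug1 in NS (0.50, 0.11 to 0.88). In ND, in NS and at 200 mM the upper ends of their intervals lay below the Neat1 ratio. At 250 and 300 mM their intervals also held the Neat1 ratios of 0.64 and 0.62 (log2), so a step of that size could be missed there. Platr31 was lower in the highest quintile in NS (log2 -0.45, -0.76 to -0.14), and its interval held 0 in the other 4 libraries. Its variance over NS barcodes was 3.69 times that of 1 shared profile. In NS, 87 barcodes with 3 or more Platr31 UMIs held 410 of its 885 UMIs. The counting interval is too narrow for such a spread, so NS is not set apart on this value. Mitochondrial UMIs made up 4.77% in the highest quintile and 5.46% in the lowest in ND, and were lower in the highest quintile in each library, while median UMIs per barcode differed little (836 against 813 in ND). Barcodes of 1 library are not replicates, and the part of these quality measures in the steps was not tested.

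**Figure D4:**
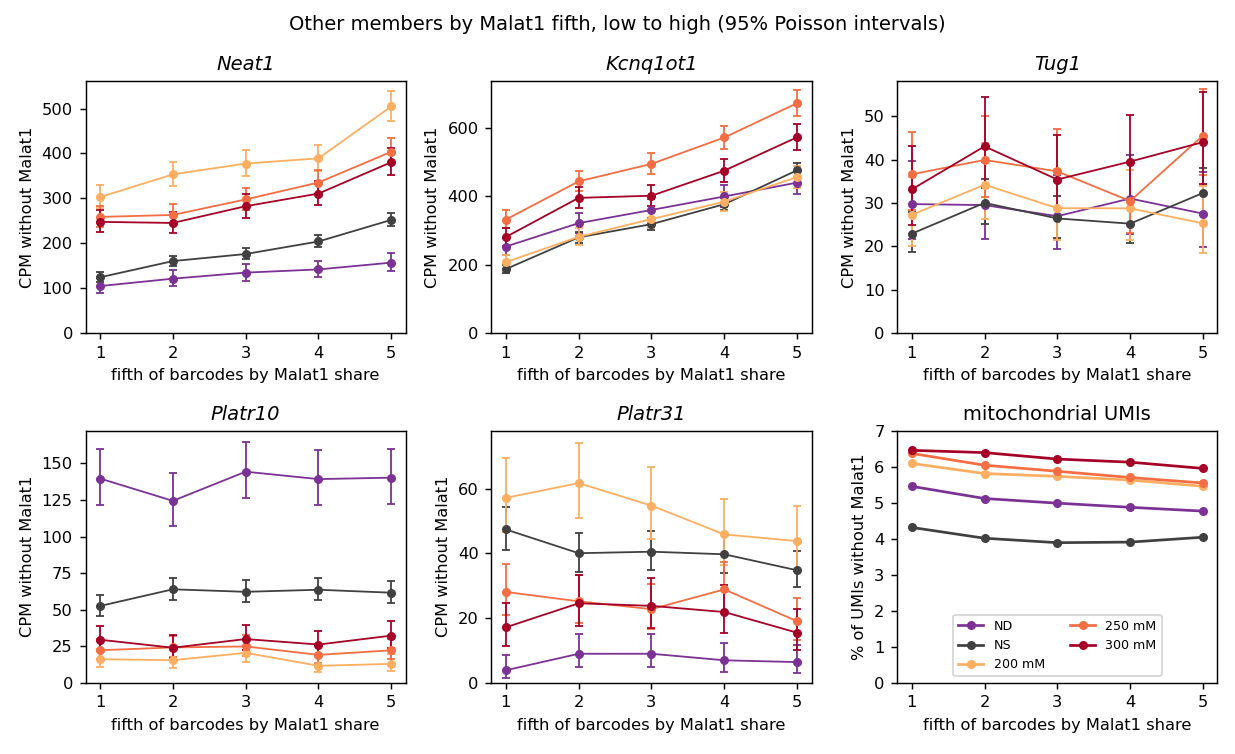
Level of the other 5 long non-coding RNAs (y axes, CPM of UMIs without Malat1) and mitochondrial share (last panel, percent) by quintile of barcodes from lowest to highest Malat1 share (x axis), 1 line per library with 95% Poisson intervals. Neat1 and Kcnq1ot1 are higher in the last quintile than in the first in all 5 libraries, and the mitochondrial share is lower in the last quintile than in the first.

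Leaving the 6 RNAs out, the genes with the highest ratios in the same contrast among those with at least 50 CPM included Cenpf, a large mitotic protein, Pnn, a speckle protein, and Ranbp2 in ND. In NS they included Ahnak, Akap12, Zdbf2 and Golgb1, and at 200 mM Prpf38b, Golgb1 and Nrk. Their ratios were 1.95-fold to 2.19-fold in ND and NS. They were taken as the highest ratios and are a description only.

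Platr31 was unevenly spread over barcodes as well. Its variance over barcodes was 1.61 times that of 1 shared profile in ND, 3.69 times in NS and 1.49, 1.69 and 1.30 times at the 3 doses. In each library this was above all 50 genes of nearest level. In NS, 87 of 10000 barcodes had 3 or more UMIs and together held 410 of its 885 UMIs, with up to 25 UMIs in 1 barcode. After thinning to 500 UMIs, 18.2% of the NS barcodes with the RNA had 2 or more UMIs, against 6.90% in ND (2 of 29 barcodes) and 11.01%, 11.7% and 11.5% at the doses. The other 5 RNAs, Malat1 aside, had variance ratios of 0.99 to 1.17 in all libraries. Among them, Neat1 in NS (1.17) and Kcnq1ot1 at 300 mM (1.07) also lay above all 50 genes of nearest level, each in that library only.

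The 10 genes with the highest ratio in those 87 NS barcodes, among genes with at least 20 UMIs there, included Usp17lc, a deubiquitinase of a multicopy family (35 UMIs in the 87 barcodes and 66 in the other 9913), and the unnamed gene models Gm20767, Gm8994 and Gm5039. Usp17l genes, with the Zscan4 and Tcstv families, are known from cleavage-stage embryos and from rare cells of embryonic stem cell cultures. Zscan4 and Tcstv UMIs were taken as the mark of such barcodes after these values were seen. These families have near-identical copies, so single genes among them are uncertain and only the families are used.

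Barcodes with at least 1 UMI of a Zscan4 or Tcstv gene numbered 23 in ND, 165 in NS and 195, 110 and 67 at the 3 doses. Platr31 stood at 510 CPM in these and 5.71 CPM in the rest in ND, and at 675 and 29.2 CPM in NS. At the doses it stood at 346 and 45.6 CPM, 296 and 21.2 CPM, and 505 and 16.8 CPM. The ratio was 89.3-fold in ND (40.1 to 180, on 10 UMIs), 23.1-fold in NS (19.9 to 26.8), 7.58-fold at 200 mM (5.72 to 9.90), 14.0-fold at 250 mM (9.31 to 20.3) and 30.1-fold at 300 mM (19.6 to 45.0). In NS, where 3.71% of 5639 genes with at least 20 CPM were at least 1.5-fold higher in such barcodes, none exceeded Platr31. At 200, 250 and 300 mM 8.06%, 12.5% and 17.5% of genes were that much higher, and 5, 1 and 0 exceeded Platr31. These shares rest on 195, 110 and 67 marked barcodes. Smaller sets carry more counting error, so the rise of the share over the doses is not read as a difference between libraries. The 20 CPM minimum leaves out genes found mainly in such rare barcodes, such as Usp17lc at 4.56 CPM in NS. The rank of Platr31 therefore holds only among the more abundant genes and does not set it apart from the genes left out. At 300 mM Platr31 had 20.3 CPM over all kept barcodes and 16.8 CPM in the unmarked ones. It thus met the minimum there only through the marked barcodes, and its rank at 300 mM carries no weight.

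**Figure D5:**
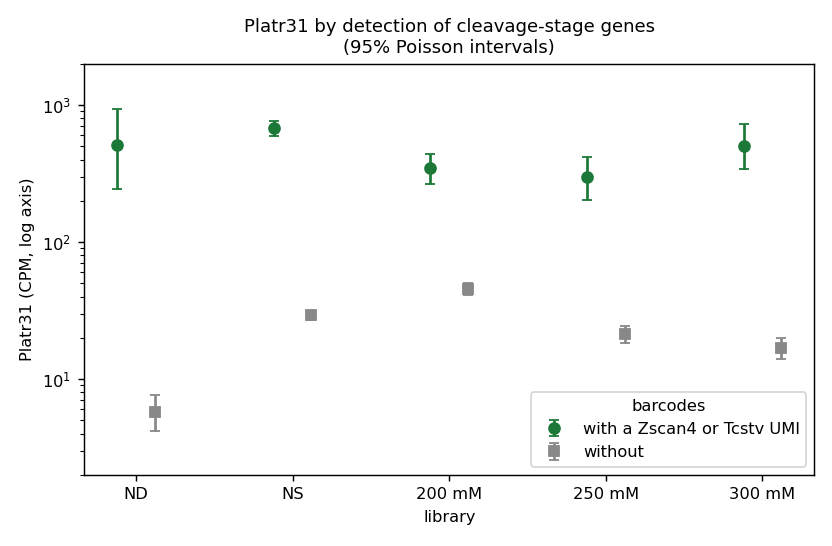
Platr31 level (y axis, CPM on a log axis) in barcodes with at least 1 Zscan4 or Tcstv UMI (green circles) and in all other kept barcodes (grey squares), per library (x axis), with 95% Poisson intervals. The marked barcodes lie at 296 to 675 CPM and the rest at 5.71 to 45.6 CPM.

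The marked barcodes were as deep as the rest, with medians of 831 and 827 UMIs in ND and 2139 and 2135 UMIs in NS, and their mitochondrial share was 3.89% against 3.98% in NS. They held 28.0% of the Platr31 UMIs in NS and 13.3% to 18.2% in the other libraries, so most Platr31 UMIs lay in unmarked barcodes. Zscan4 and Tcstv genes had only 214 UMIs in NS, so unmarked barcodes may include cells of the same kind. Of NS barcodes with 3 or more Platr31 UMIs 35.6% had a Zscan4 or Tcstv UMI, against 0.852% of those with none. For none of the other 5 RNAs did the interval lie above 0 in the marked barcodes. Malat1 was slightly lower there in NS (log2 -0.15, -0.19 to -0.11), at 200 mM (-0.11, -0.15 to -0.06) and at 250 mM (-0.11, -0.17 to -0.05), and at 300 mM Neat1 was lower (-1.30, -2.61 to -0.25, on 7 UMIs). The variance of Malat1 over barcodes was 7.68, 5.28 and 5.34 times that of 1 shared profile in NS and at 200 and 250 mM. Counting intervals leave this out and are too narrow, so the small Malat1 differences are uncertain. Kcnq1ot1, Platr10 and Tug1 had intervals that held 0 in each library with a ratio. In NS barcodes with a Platr31 UMI, Sox2, a core pluripotency factor, was lower than in those without (271 and 363 CPM, log2 -0.42, -0.60 to -0.26), as was Zfp42 (493 and 565 CPM). Both were also lower at 200 mM (Sox2 -0.23, -0.44 to -0.03, and Zfp42 -0.34, -0.58 to -0.11), and the intervals of both held 0 in ND and at 250 and 300 mM. The intervals of Pou5f1 and Nanog held 0 in all 5 libraries.

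Leaving out the marked barcodes kept Platr31 lower in ND than in NS, at -2.36 on the log2 scale. Leaving them out moved the ratio at 200 mM over NS to 0.64, past 1.5-fold, and that at 250 mM to -0.46, within it. Leaving out barcodes with a Usp17l UMI as well gave -2.17 in ND, 0.74 at 200 mM and -0.35 at 250 mM, and -0.58 at 300 mM, which is within 1.5-fold. NS barcodes are deeper, so more of them can show such a UMI.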

How the data were processed

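Single-cell RNA matrices of 5 libraries were used. The deposited values are unnormalized UMI counts, which per the file headers came from Cell Ranger 6.0.1. The submitters' processing notes also list Seurat 4.1.1, R 4.1.2 and mm10. Per the labels, RNA was extracted with Trizol and a Lexogen 3′ kit, but the files have the form of droplet data, and which holds was not settled. Kept barcodes had 500 genes or more and no more than 20% of UMIs from mitochondrial genes, and no doublet caller was run. UMIs were summed per library and scaled to CPM. Levels carry exact Poisson intervals, ratios exact conditional binomial ones and shares Clopper-Pearson ones, all at 95% and for counting error only (Python 3.11.15, numpy 2.4.6, scipy 1.17.1). Counts under 3 UMIs were set to 3, and no ratio is given where both counts were at or under 3 or where the bound pointed away from the difference. The ratio code was tested on simulated data. Gene types and transcripts come from GENCODE M21, which held 32158 of the 32285 gene IDs. Named genes were the 6 RNAs, 3 most alike per RNA, up to 4 with the highest mean CPM per list and neighbours within 50 kb with at least 20 CPM; Serpini1, Cdkn1c, Phlda2, the core paraspeckle proteins, the genes leading the Malat1 and Platr31 barcode contrasts and the Zscan4, Tcstv and Usp17l families were added after values were seen. Some genes that this rule names are not reported here. The RNAs and the lists were chosen with earlier results of these data known.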

Additional observations from a re-analysis of the deposited data

How the results depend on the processing

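No paired analysis was possible because each condition has 1 library. Each of 30 log2 ratios was recomputed under 10 settings. Using all deposited barcodes, dropping barcodes shared between libraries, dropping the 5% with most UMIs, leaving Malat1 out of the total and thinning to 500 UMIs moved no ratio across 1.5-fold; the largest change among them was 0.22 (log2). Median-of-ratios scaling moved 5 ratios across it and leaving mitochondrial and ribosomal protein genes out of the total 3, so that 2 and 3 of the 6 RNAs passed at 250 mM over NS, against 5. With at least 1000 genes per barcode, which 8 barcodes in ND, 9255 in NS and 22, 47 and 19 in the sorbitol libraries reached, 10 ratios could not be had, 3 RNAs passed at 250 mM over NS and 1 at 300 mM over ND (against 3), and Platr31 at 300 mM over NS turned to 1.61 on 4 UMIs. These barcodes are too few outside NS to compare. With at least 20 CPM, 766 genes passed 1.5-fold for ND over NS, 2152, 1965 and 2700 at the 3 doses over NS and 2313 for 300 mM over ND; with no minimum beyond 3 UMIs 5161, 7920, 7509, 8492 and 7343 did, and with 5 CPM 1745, 4043, 3740, 4625 and 4196. Leaving out barcodes with a Zscan4 or Tcstv UMI, or a Usp17l UMI as well, was chosen after seeing the data and moved 2 and 3 ratios across 1.5-fold, all of Platr31. Of 60 list counts, 27 moved by over 1.5 times with 20 CPM and 14 with median-of-ratios scaling. Depth limits Platr31 in ND (55 UMIs) most.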

Other observations

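Barcodes with a Kcnq1ot1 UMI also held more Malat1 in all 5 libraries, with a log2 difference of 0.16 in ND, 0.29 in NS and 0.20, 0.20 and 0.19 at 200, 250 and 300 mM. In NS, where the difference was largest, Malat1 stood at 15523 CPM in 4872 barcodes with a Kcnq1ot1 UMI and 12721 CPM in 5128 without (log2 0.29, 0.28 to 0.30), and Neat1 at 205 and 157 CPM (0.39, 0.30 to 0.48). For Neat1 the interval held 0 in ND (0.12, -0.08 to 0.32) and at 250 mM (0.10, -0.01 to 0.20), and the difference was 0.19 at 200 mM and 0.27 at 300 mM. In NS, Platr31 (46.2 and 33.9 CPM, log2 0.45, 0.25 to 0.64) and Platr10 (64.4 and 55.6 CPM, 0.21, 0.06 to 0.37) were higher there too. Their intervals held 0 in the other 4 libraries. Median depth in NS was 2165 and 2111 UMIs. The intervals leave out the spread between barcodes and are too narrow for RNAs spread as unevenly as Malat1 and Platr31. Barcodes with a Neat1 UMI in NS held Malat1 at 15500 CPM, against 13469 CPM in those without (log2 0.20), and in the other 4 libraries the difference was 0.12 to 0.14.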
